A study of Mus musculus with 12 samples.

Results

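A set of 43 genes that interferons induce or that serve antigen presentation on major histocompatibility complex (MHC) class I was read across RNA-seq libraries of mouse common lymphoid progenitors (CLPs) from 3 *Firre* genotypes. The members were chosen by gene name and pathway, with earlier results of these data known. Of the 43, 42 were matched to 1 of the 47643 rows of the deposited table, and all 42 passed the filter used for testing, a mean of at least 1 TPM (transcript abundance scaled by gene length and library total) over the 12 libraries, which left 14479 genes. The remaining member, *Psmb9*, an inducible proteasome subunit, was not analysed here. By role the 42 fell into 4 RNA and nucleic acid sensors, 4 transcription factors, 18 antiviral effectors, 7 enzymes of ISG15, ubiquitin and ADP-ribose conjugation, 2 guanylate-binding proteins and 7 class I presentation genes.

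*Firre* is a long non-coding RNA transcribed from the X chromosome, and CLPs are bone marrow cells that give rise to lymphocytes. The cells were sorted from adult male mice as lineage-negative, Sca1-low, cKit-low and IL7Rα-positive, with 4 WT, 4 KO and 4 Rescue libraries, 1 mouse each. KO mice carried ∆*Firre*, a germline deletion of the whole locus made with CMV-Cre in mice derived from JM8 embryonic stem cells and then crossed to C57BL/6J. Rescue mice carried ∆*Firre* too, together with tg(*Firre*), a *Firre* cDNA behind a tet-responsive element and a CMV minimal promoter, and the ubiquitous transactivator transgene CAG-rtTA3, and ate doxycycline chow. The study compared these groups to ask whether *Firre* RNA supplied from a transgene acts in the absence of the locus. Among these groups the paper names transgenes and doxycycline only for the Rescue mice, and the Rescue library numbers fall in a range of their own. The effects of the *Firre* transgene, the transactivator, doxycycline, strain background and library batch therefore cannot be told apart in any comparison with Rescue.

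As background, cells that sense foreign RNA or DNA secrete type I interferons, which bind a receptor of the IFNAR1 and IFNAR2 chains. The kinases JAK1 and TYK2 then phosphorylate STAT proteins, which enter the nucleus with IRF9 and bind interferon-stimulated response elements in promoters of antiviral genes. Interferon gamma signals through its own receptor, JAK1 and JAK2 to gamma-activated sites. Many of these genes also have a basal level in unstimulated cells, including haematopoietic progenitors. MHC class I presentation is interferon-inducible as well: the immunoproteasome (PSMB8, PSMB9, PSMB10) cuts peptides, TAP carries them into the endoplasmic reticulum, and tapasin loads them on H2-K1 or H2-D1 paired with β2-microglobulin.

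Whole reads recovered from the TPM steps numbered 10900785 to 18009467 per WT library, 14232200 to 17413436 per KO library and 25531653 to 32302565 per Rescue library. *Firre* itself stood at 25.2 to 31.6 TPM in WT, at 0 in all 4 KO libraries (3 reads would be 0.0606 to 0.0746 TPM) and at 59.9 to 174 TPM in Rescue. The CLP markers *Il7r* (385 to 456 TPM in WT, 353 to 525 in KO, 363 to 445 in Rescue) and *Flt3* (508 to 677, 506 to 588 and 517 to 709 TPM) were present in every library. Below, a gene is called when limma gives an adjusted p of 0.1 or less over all genes tested (two-sided), differences are between group means of log2(TPM + 1) ± SE with n = 4 per group, and libraries are listed by mouse number, as 6, 8, 10 and 11 for WT, 8, 9, 11 and 12 for KO, and 1 to 4 for Rescue. The p-values weigh each difference against the spread within groups, where mouse, sort and library are not separated. A batch difference shared by all Rescue libraries is not part of that spread.

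Promoter sequence is shown for 7 members picked from the antiviral, ISG15 and class I roles, to place short interferon motif patterns beside the measured levels. RefSeq windows of 300 bases (GRCm38.p6, the mm10 build, 250 bases before to 50 after a start site) were given for 35 of the 43 members. The response element core GAAANNGAA was found, on either strand, in a window of 17 of these 35 (48.6%) and in 9.76% of all 27025 symbols, and the gamma-activated site TTCNNNGAA in 7 of 35 (20%) against 9.55%. Both together covered 22 of 35 members. By role, the core lay in 8 of 15 antiviral effectors, 3 of 4 ISG15 and ubiquitin enzymes and 1 of 8 class I genes (*B2m*), while TTCNNNGAA lay in 5 of 15 antiviral effectors and 1 of 8 class I genes (*Psmb8*). Capitals mark the matches. The windows are *Isg15* chr4:156200769-156201068 (- strand), with 3 overlapping cores from base -78, *Samd9l* chr6:3399522-3399821 (- strand), with 1 core at base 39, *Bst2* chr8:71537423-71537722 (- strand), with 2 cores that overlap each other and 1 TTCNNNGAA that overlaps the first of them, *Psmb8* chr17:34197945-34198244 (+ strand), with 1 TTCNNNGAA at base -97, and *Psmb10* chr8:105938343-105938642 (- strand), *Tap1* chr17:34187306-34187605 (+ strand) and *H2-D1* chr17:35262844-35263143 (+ strand), in which neither pattern occurs. Each reads 5′ to 3′ on the gene's strand, and bases are counted from the start site. Only these exact patterns were searched for, so close variants, such as tttcacttc in the *H2-D1* window, are not marked.
Isg15: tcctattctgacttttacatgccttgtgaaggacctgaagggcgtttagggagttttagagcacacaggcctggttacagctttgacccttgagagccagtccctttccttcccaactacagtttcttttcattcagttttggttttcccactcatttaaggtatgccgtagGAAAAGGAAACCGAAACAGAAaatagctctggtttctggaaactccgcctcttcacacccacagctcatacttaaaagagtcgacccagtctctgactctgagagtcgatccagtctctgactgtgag
Samd9l: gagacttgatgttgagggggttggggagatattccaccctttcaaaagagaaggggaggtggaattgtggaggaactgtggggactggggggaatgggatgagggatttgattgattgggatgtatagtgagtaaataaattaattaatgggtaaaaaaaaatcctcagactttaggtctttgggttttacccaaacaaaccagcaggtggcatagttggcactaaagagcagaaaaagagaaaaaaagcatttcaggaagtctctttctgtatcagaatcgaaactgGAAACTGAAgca
Bst2: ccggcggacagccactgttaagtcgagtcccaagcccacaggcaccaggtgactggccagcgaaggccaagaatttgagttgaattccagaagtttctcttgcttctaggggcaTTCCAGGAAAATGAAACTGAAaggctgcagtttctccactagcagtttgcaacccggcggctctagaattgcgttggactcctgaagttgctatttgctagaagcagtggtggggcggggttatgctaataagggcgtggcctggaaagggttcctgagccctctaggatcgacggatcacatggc
Psmb8: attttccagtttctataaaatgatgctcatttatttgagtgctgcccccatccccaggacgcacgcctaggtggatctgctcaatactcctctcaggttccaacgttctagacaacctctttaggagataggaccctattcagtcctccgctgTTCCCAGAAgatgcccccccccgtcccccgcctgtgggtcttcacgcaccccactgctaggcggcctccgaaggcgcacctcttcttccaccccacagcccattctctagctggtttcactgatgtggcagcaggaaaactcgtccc
Psmb10: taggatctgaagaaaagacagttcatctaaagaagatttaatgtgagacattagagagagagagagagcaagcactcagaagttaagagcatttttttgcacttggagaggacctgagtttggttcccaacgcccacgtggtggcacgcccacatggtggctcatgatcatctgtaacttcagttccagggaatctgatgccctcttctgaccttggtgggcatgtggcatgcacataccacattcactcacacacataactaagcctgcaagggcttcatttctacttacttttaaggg
Tap1: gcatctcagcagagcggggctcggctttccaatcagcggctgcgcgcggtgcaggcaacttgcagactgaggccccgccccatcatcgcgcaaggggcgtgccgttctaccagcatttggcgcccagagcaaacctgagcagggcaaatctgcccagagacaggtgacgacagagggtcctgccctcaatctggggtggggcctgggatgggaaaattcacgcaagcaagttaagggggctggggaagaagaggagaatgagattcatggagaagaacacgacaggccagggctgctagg
H2-D1: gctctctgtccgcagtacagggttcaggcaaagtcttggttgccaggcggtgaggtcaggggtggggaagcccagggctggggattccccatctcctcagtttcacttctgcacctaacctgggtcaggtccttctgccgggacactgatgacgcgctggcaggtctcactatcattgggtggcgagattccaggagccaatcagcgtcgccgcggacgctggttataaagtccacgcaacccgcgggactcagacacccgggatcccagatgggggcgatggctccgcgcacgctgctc

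A match is a description of the letters, not of binding, and the lack of a match does not show that an element is missing. In mm10 the class I members *Tapbp*, *H2-K1*, *Tap1*, *Psmb8* and *H2-D1* lie on chromosome 17 between bases 33919478 and 35267497, whereas *Psmb10* (chromosome 8) and *B2m* (chromosome 2) lie elsewhere. *Ifit1*, *Ifit2* and *Ifit3* are neighbours on chromosome 19, *Oas1a*, *Oas2* and *Oas3* on chromosome 5, *Rsad2* and *Cmpk2* on chromosome 12, and *Parp9* and *Dtx3l* on chromosome 16, where reads of overlapping or near-identical genes (the *Oas1*, *Ifit*, *Gbp* and H2 families) could be shared in counting.

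Basal levels differed widely between roles. TPM is scaled per transcript length, so levels can be set side by side. The class I genes were the most abundant, with mean levels from 96.1 TPM (*Psmb10*) to 6263 TPM (*B2m*) and a median over the 7 of 262 TPM. Antiviral effectors had a median of 14.3 TPM and ran from 3.05 TPM (*Ifit3*) to 157 TPM (*Bst2*), and 6 of the 18 were below 10 TPM. Sensors lay between 6.05 TPM (*Zbp1*) and 30.1 TPM (*Ddx58*), transcription factors between 20.6 TPM (*Irf7*) and 86.4 TPM (*Irf1*), the ISG15 and ubiquitin enzymes between 11.2 TPM (*Usp18*) and 100.1 TPM (*Trim25*), and *Gbp2* and *Gbp3* at 31.2 and 66.8 TPM. Depth limits the low end: *Ifit3* rests on 0 to 98 reads per library, and its 0 in the Rescue-1 library allows up to 0.188 TPM (3 reads, counting error only). At the top, *B2m* rests on 16559 to 78807 reads.

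**Figure D1:**
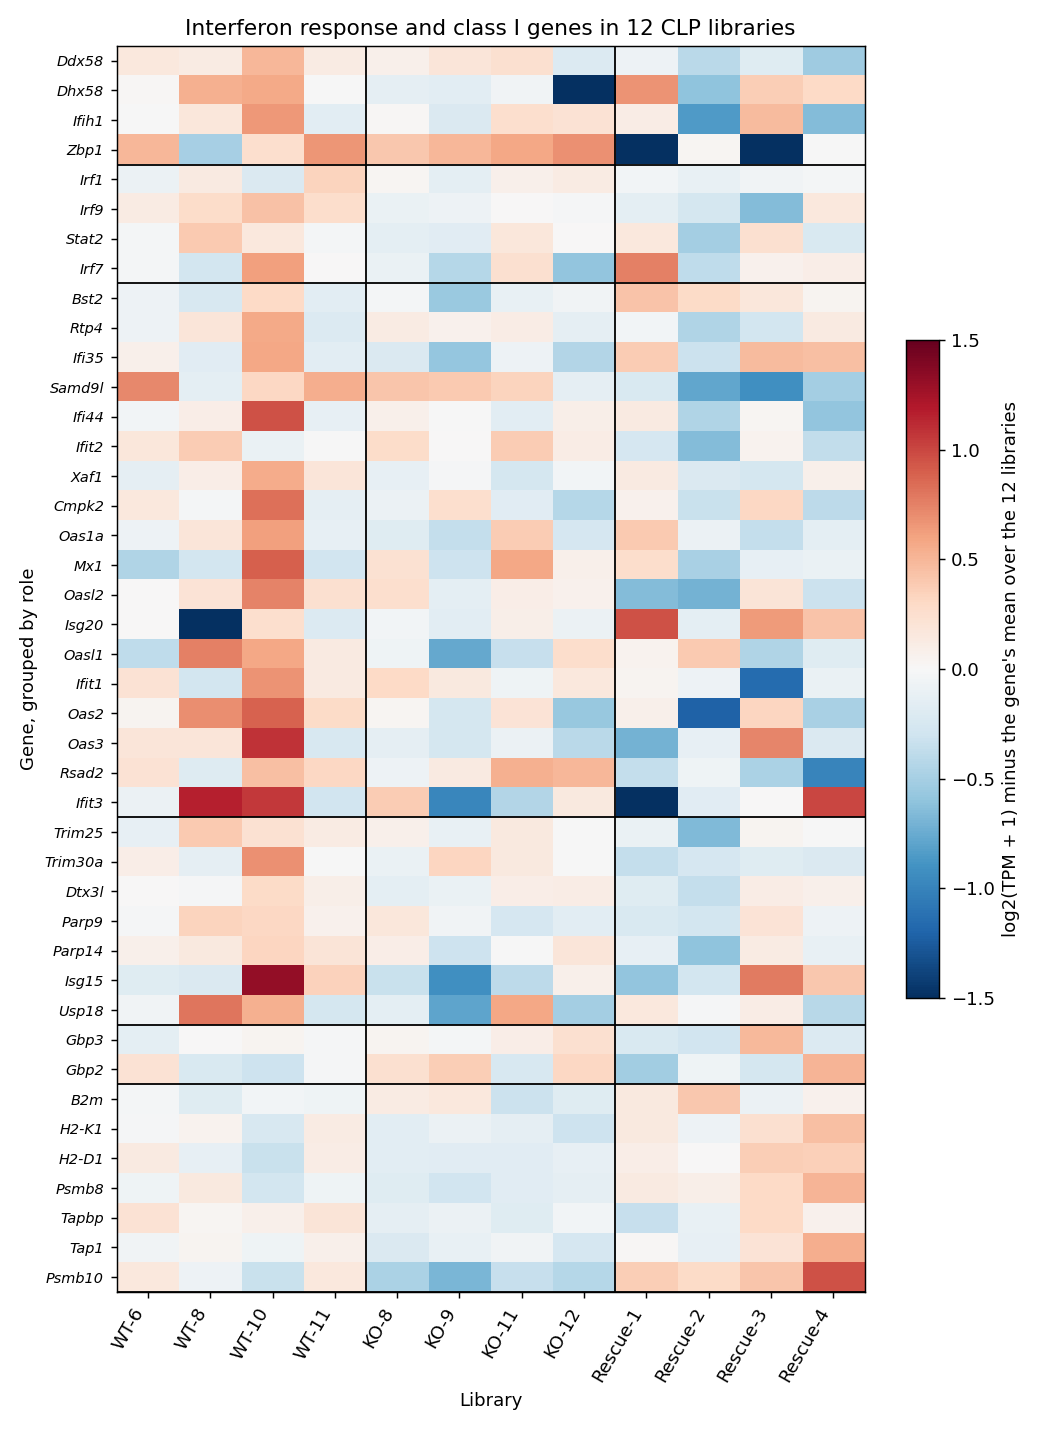
Each cell is the log2(TPM + 1) of 1 of 42 members (rows, by role from sensors at the top to class I genes at the bottom) in 1 of 12 libraries (columns), minus the member's mean over all 12, with red above and blue below and colours held at 1.5 on either side. The WT-10 column is red through the antiviral rows, and the 4 Rescue columns are mostly red in the class I rows, where KO is mostly blue.

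Loss of the *Firre* locus was followed by no called member. In KO against WT, 0 of 42 members passed the test with limma, beside 0.0207% of all genes tested (3 genes, 0.0138% higher and 0.00691% lower), and voom on recovered reads also called 0. At an unadjusted p under 0.05 there were 3 (*Dhx58*, *Irf9* and *Psmb10*), beside 767 of the 14479 genes. The difference was below 0 for 34 of the 42 members, beside 8895 of all 14479 genes tested, and the median was -0.16, beside -0.06 over all genes. After rescaling by the median ratio, 31 of 42 members and 6973 of 14479 genes were below 0. Without the WT-10 library, the median of the members was -0.11. Within the range of library numbers that holds WT-8, WT-11, KO-8 and KO-11 it was -0.05 (all genes -0.06), and within the range that holds WT-6, WT-10, KO-9 and KO-12 it was -0.29 (all genes -0.06). Whether the 2 ranges differ was not tested.

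The groups were fully apart for 4 of 42 members, all lower in KO (9.52%, beside 5.33% of all genes tested in either direction, 0.843% higher and 4.49% lower). *Psmb10*, which encodes the inducible trypsin-like subunit of the immunoproteasome, stood at 102, 86.6, 72.3 and 102 TPM in WT and 65.2, 56.2, 71.8 and 67.5 TPM in KO. The highest KO value lay just under the lowest WT value, and the difference was -0.47 ± 0.16 (limma, adjusted p = 0.89). *Irf9*, a DNA-binding partner of STAT proteins, read 59.4, 66.5, 74.2 and 65.6 TPM in WT against 50.9, 51.9, 54.9 and 53.9 TPM in KO, a difference of -0.32 ± 0.14 (limma, adjusted p = 0.93). For *Dhx58*, a regulator of the RNA sensors, the values were 20.4, 29.6, 30.3 and 19.9 TPM in WT and 18.2, 17.98, 19.3 and 6.38 TPM in KO, with KO-12 far below the rest and a difference of -0.74 ± 0.34 (limma, adjusted p = 0.93). *Tapbp*, encoding tapasin, stood at 129.6, 114, 118 and 128 TPM in WT and 102, 106, 98.8 and 109 TPM in KO, -0.24 ± 0.12 (limma, adjusted p = 0.93). None of these 4 differences passed the test, and their sizes within the 2 ranges of library numbers were -0.45 and -0.48 for *Psmb10*, -0.32 and -0.32 for *Irf9*, -0.36 and -1.13 for *Dhx58*, and -0.27 and -0.20 for *Tapbp*.

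In Rescue, which carries the *Firre* transgene in the ∆*Firre* background, 5 of the 7 class I members were called higher than in KO. Single antiviral effectors were called in either direction and 2 sensors lower. In Rescue against KO, 12 of 42 members were called (28.6%), 7 higher and 5 lower, beside 27.9% of all genes tested (8.58% higher and 19.3% lower). The share of members called was near that of all genes. Class I presentation genes made up 5 of the 7 higher calls, 5 of 7 tested (71.4%, beside 8.58%), with none lower. Of 20 further class I route genes outside the set, 2 were called higher and 4 lower (10% and 20%). The class I role was led with after the values were seen, so its share is a description and not a test. Among the other 35 members, 2 were higher (5.71%) and 5 lower (14.3%), both shares below those of all genes tested. The median difference was 0.36 over the class I genes and -0.15 over the other 35, beside -0.16 over all genes tested, so that relative to all genes the medians were 0.52 and 0.01. The groups were apart for 8 of 42 members (19.0%, beside 21.9%), 5 of them higher (beside 6.31%) and 3 lower (beside 15.6%).

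The overall median shifted by scaling. After rescaling each library by its median ratio the median of all genes moved from -0.16 to -0.05, and the calls among members became 7 higher and 3 lower (10), while 5 of 7 class I genes remained higher, beside 13.1% of all genes tested. The lower calls lost were *Ddx58* and *Rsad2*. Exon GC content also went with direction: it was 54.3% in the median over the class I genes and 48.8% over the other members, and 49.5% over all genes tested with a value. With a GC correction, 8 members were called, 7 higher and 1 lower (beside 13.7% and 5.8% of all genes with a value), 28 of the 35 members outside class I had a difference above 0 (beside 7719 of 13086 genes, with an all-gene median of 0.08), and all 5 class I calls were kept and *B2m* added. Not called there were *Samd9l* (-0.37), *Ddx58* (-0.02), *Ifit2* (-0.08), *Rsad2* (-0.37) and *Bst2* (0.33). When 1 library was left out, 5 members were called without Rescue-4 (3 higher, 2 of them class I) and 7 without KO-9. The shares of all genes called in these runs are not given here, so the change is not a result about the members.

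**Figure D2:**
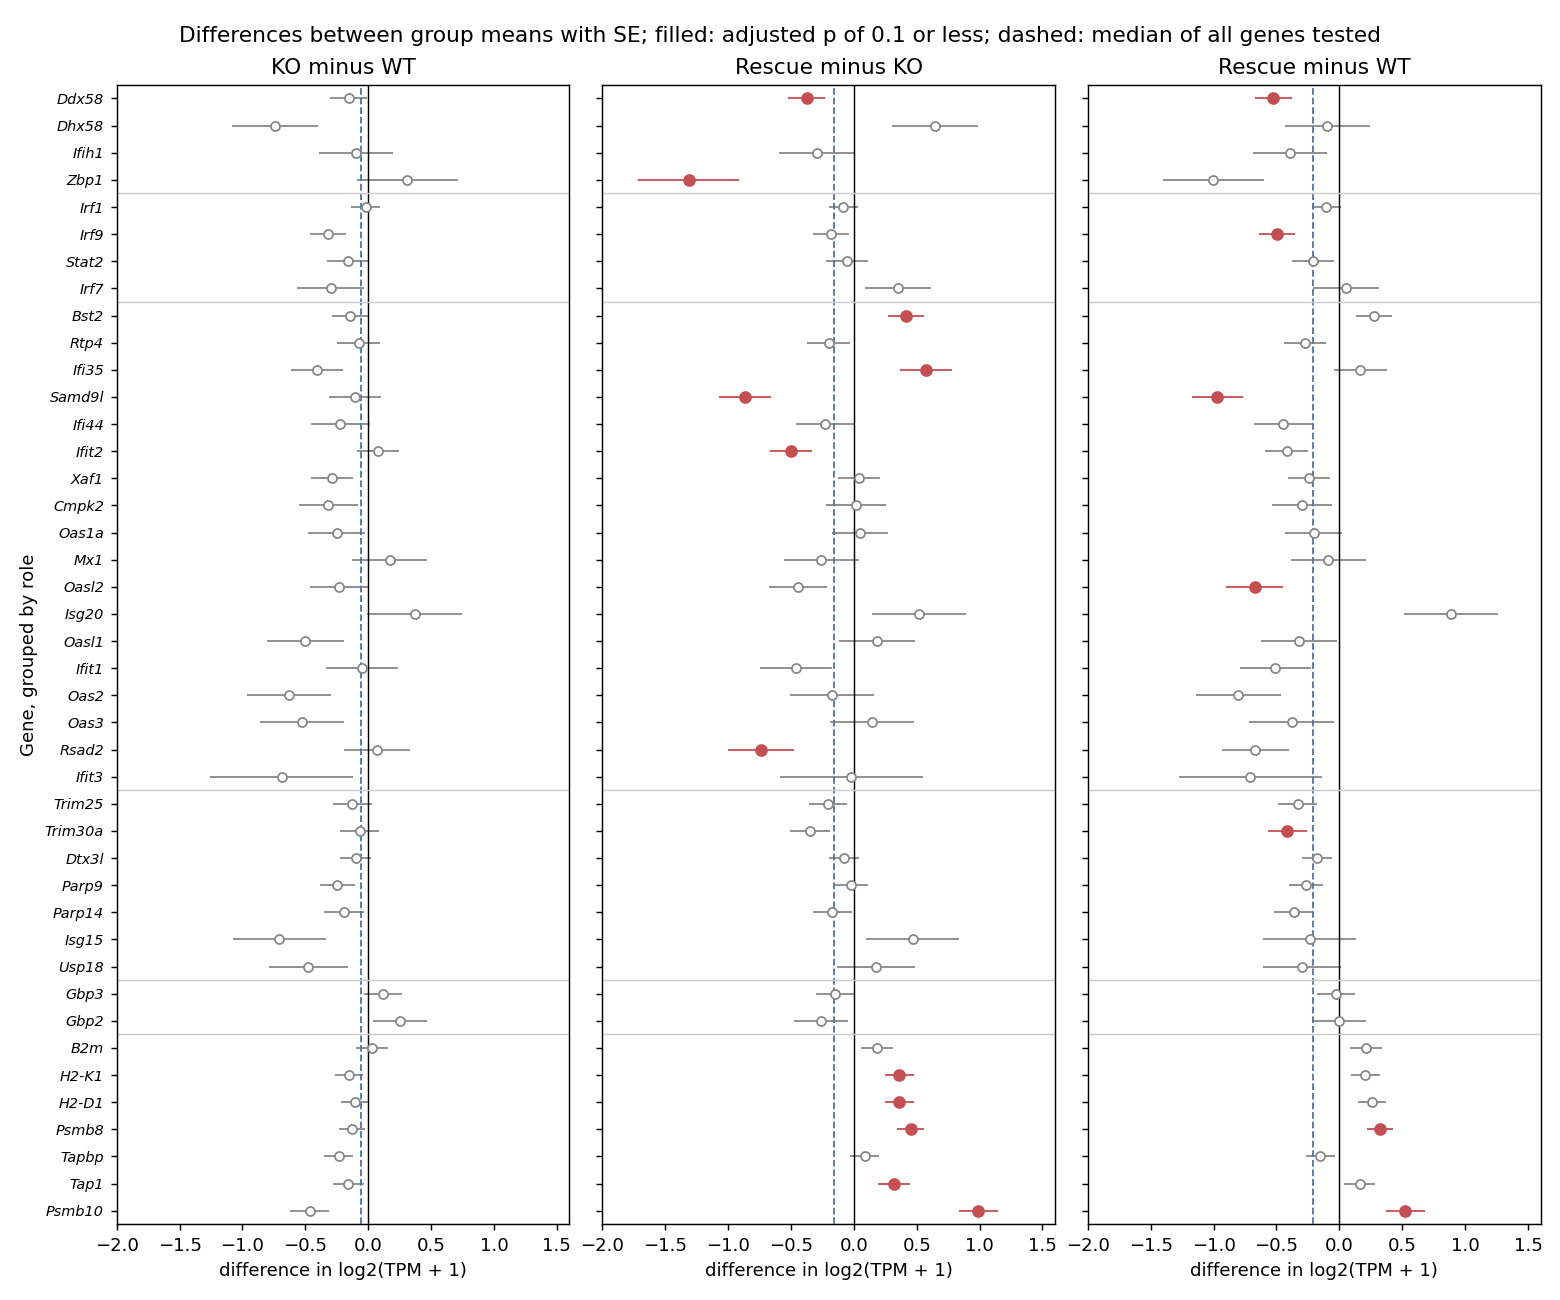
Difference in mean log2(TPM + 1) between groups (points) with SE (bars) for each of the 42 members by role, in KO minus WT (left), Rescue minus KO (middle) and Rescue minus WT (right). Filled red points are called (0, 12 and 7 members), the black line marks 0 and the dashed blue line the median of all genes tested (-0.06, -0.16 and -0.21), to the right of which all 7 class I genes lie in both Rescue panels.

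*Psmb10* showed the largest rise of any member. Its level was 118, 112, 122 and 177 TPM in the Rescue libraries, each above all WT and KO libraries. The mean was 132 ± 30.4 TPM (SD, n = 4) against 65.2 ± 6.59 in KO, and the difference 0.99 ± 0.16 (limma, adjusted p = 0.0014), a 1.99-fold higher value on the log2(TPM + 1) scale. *Psmb8*, the inducible chymotrypsin-like subunit, read 248, 286, 213 and 247 TPM in WT, 227, 212, 229 and 236 TPM in KO and 284, 275, 319.6 and 368 TPM in Rescue. All 4 Rescue values exceeded all KO values, and 1 of the 4 WT libraries, WT-8, was in the Rescue range. The difference from KO was 0.45 ± 0.11 (limma, adjusted p = 0.012). The constitutive subunits that PSMB8 and PSMB9 replace, from the list of constitutive proteasome genes, were higher too: *Psmb5* by 0.46 (limma, adjusted p = 0.041) and *Psmb6* by 0.52 (adjusted p = 0.0061), 2 of 9 in that list (4 with the GC correction), with none lower, beside 8.58% and 19.3% of all genes tested. *Psmb7*, which PSMB10 replaces, did not pass at 0.14 (limma, adjusted p = 0.5).

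The classical class I heavy chains moved by a similar amount. *H2-K1* stood at 1052, 1104, 903 and 1160.3 TPM in WT, 953, 997, 968 and 859.6 TPM in KO and 1178, 1008, 1257 and 1455 TPM in Rescue. The lowest Rescue value, in Rescue-2, was only just above the highest KO value, and WT overlapped both. *H2-D1* read 895, 749, 646 and 880.4 TPM in WT, 732, 722, 724 and 747 TPM in KO and 873, 817, 1049 and 1046 TPM in Rescue. KO values were tightly grouped and all below Rescue. The differences from KO were 0.36 ± 0.11 for *H2-K1* and 0.36 ± 0.11 for *H2-D1* (limma, adjusted p = 0.04 and 0.041), and both calls were lost without Rescue-4 and with quantile normalization. The *H2-K1* call was also lost without KO-12. Of 8 further H2 genes on the class I list, *H2-T24* (-0.91) and *H2-Q10* (-0.75) were called lower (limma, adjusted p = 0.037 and 0.065). The differences for *H2-T22* (0.36), *H2-Q4* (0.29), *H2-Q6* (0.24), *H2-T23* (0.22) and *H2-M3* (0.19) were above 0 and that for *H2-Q7* (-0.20) below, and none of these 6 passed. Reads of these near-identical genes could be split in counting, so values for single H2 genes are uncertain.

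*Tap1*, a subunit of the peptide transporter, read 101, 108, 99.7 and 110.4 TPM in WT, 89.7, 96.5, 101 and 87.8 TPM in KO and 106, 96.3, 121 and 153 TPM in Rescue. Rescue-4 was highest, and Rescue-2 lay within the KO values. The difference of 0.32 ± 0.12 passed narrowly (limma, adjusted p = 0.088) and was not called when any of WT-6, WT-10, WT-11, the 4 KO libraries, Rescue-3 or Rescue-4 was left out in turn. Its partner *Tap2*, which was not a member, was higher by 0.63 (limma, adjusted p = 0.022). *B2m*, the invariant light chain, stood at 6079, 5475, 6055 and 5926 TPM in WT, 6785, 6954, 4979 and 5496 TPM in KO and 6854, 8219.8, 5867 and 6472 TPM in Rescue. The groups overlapped and the difference was 0.18 ± 0.13 (limma, adjusted p = 0.35). *Tapbp* had Rescue values of 88.1, 104, 138 and 117 TPM, on both sides of KO and WT, and a difference of 0.09 ± 0.12 (limma, adjusted p = 0.65). Of 20 further genes of the class I route, 2 were called higher (*Tap2* and *Psme1*, at 0.22) and 4 lower, among them the aminopeptidase *Erap1* at -0.46 and the chaperone *Canx* at -0.29 (limma, adjusted p = 0.0021 and 0.045). These shares, 10% and 20%, were near the 8.58% and 19.3% of all genes tested. The split of this list depended on the scaling. It was 7 higher and 3 lower after rescaling by the median ratio (35% and 15%, beside 13.1% and 12.9%). With the GC correction it was 4 higher and 1 lower (20% and 5%, beside 13.7% and 5.8%). *Nlrc5*, the transactivator of class I genes (chosen after its values were seen), read 36.6 to 42.9 TPM in WT, 33.2 to 42.6 in KO and 26.9 to 47.3 in Rescue, which overlapped.

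**Figure D3:**
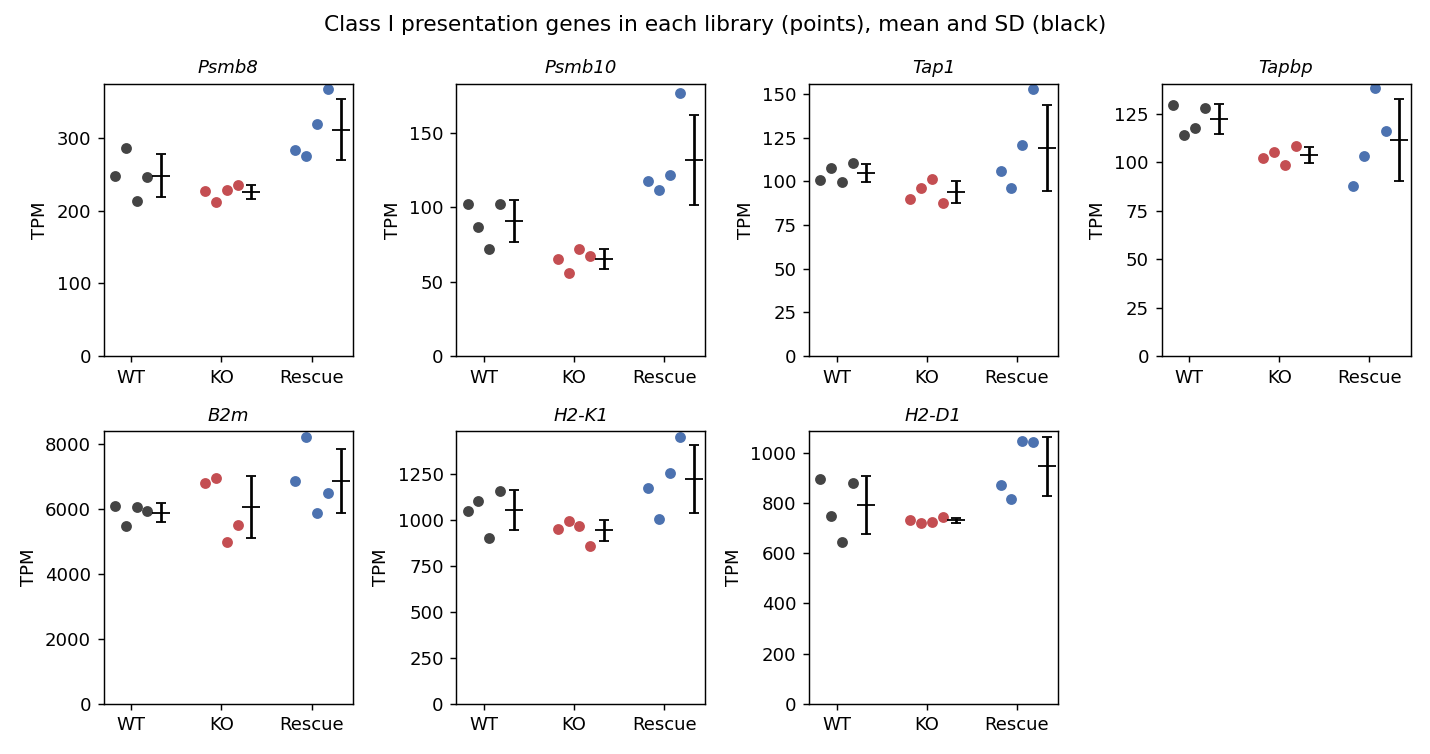
TPM of the 7 class I presentation genes in each library (points: WT grey, KO red, Rescue blue) with group mean and SD in black. For Psmb8, Psmb10, H2-K1 and H2-D1 every Rescue point lies above every KO point, and B2m and Tapbp overlap across groups.

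Markers of other cell types moved between the same groups. The summed level of 8 B-lineage markers was 215 to 420.0 TPM in WT, 282 to 373 in KO and 835 to 1339.6 in Rescue, with 7 of 8 called higher and *Ms4a1* lower in Rescue against KO. Basophil and mast cell markers summed to 1052 to 9045 TPM in WT, 2918 to 4291 in KO and 64.0 to 142 in Rescue and 6 of 6 were lower, with *Fcer1a* and *Gata2* at 0 in part of the Rescue libraries. For NK and innate lymphoid cells the sums were 351 to 689, 406 to 632 and 246 to 295 TPM in WT, KO and Rescue (5 of 6 lower), for monocytes and macrophages 349.5 to 437, 314 to 500.1 and 204 to 353 TPM (2 of 6 lower), and for antibody-secreting cells 872 to 1636, 1614 to 3412 and 306 to 528 TPM (2 of 6 higher, 3 lower). Plasmacytoid dendritic cell markers, of which *Klk1* was at 0 throughout, summed to 624 to 730.3, 530.3 to 645 and 761 to 819.8 TPM (2 higher and 2 lower of 6 tested, 2 and 0 with the GC correction), neutrophil markers to 269 to 1279, 169 to 1588 and 122 to 1573 TPM (1 of 6 lower), T cell markers to 120.5 to 181, 115 to 146 and 119 to 149 TPM (0 of 3 tested called) and erythroid markers to 11.8 to 67.5, 19.7 to 101 and 14.8 to 101 TPM (0 of 4 called). The 10 CLP markers summed to 6482 to 9085, 7610.5 to 7883 and 9078 to 9824 TPM, with 2 higher and 3 lower, 3 higher and 1 lower after rescaling, and 6 higher and none lower with the GC correction. In sorted bulk RNA a change in the share of cells and a change in RNA per cell cannot be told apart. The part of these cell types in the differences of the members, and of the pathway genes below, was not tested.

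Of the 18 antiviral effectors, 5 were called in Rescue against KO (27.8%), 2 higher (11.1%) and 3 lower (16.7%), near the shares of all genes tested (27.9%, 8.58% and 19.3%), and with the GC correction 1 was called, higher. *Samd9l*, an antiviral restriction factor and tumour suppressor of haematopoietic cells, read 63.5, 34.5, 47.7 and 56.0 TPM in WT, 51.2, 50.6, 48.6 and 34.6 TPM in KO and 32.4, 21.8, 19.8 and 26.4 TPM in Rescue. All Rescue libraries were below all KO and WT libraries. The differences were -0.86 ± 0.20 from KO and -0.97 ± 0.20 from WT (limma, adjusted p = 0.013 and 0.0085), with an exon GC content of 39.1%, the lowest of the members. With the GC correction the first was -0.37 (limma, adjusted p = 0.2) and the second -0.52 (adjusted p = 0.087), and after rescaling both were called.

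*Zbp1*, a sensor of Z-form nucleic acid that can trigger necroptosis, had 7.93, 3.46, 6.48 and 8.99 TPM in WT, 7.32, 7.89, 8.43 and 9.16 TPM in KO and 1.18, 5.41, 1.12 and 5.26 TPM in Rescue. The Rescue libraries fell into a pair near 1 TPM and a pair near 5 TPM, all below KO, and WT-8 was below the upper pair. Its difference from KO was -1.31 ± 0.40 (limma, adjusted p = 0.038), the largest decrease of a member, and was not called with quantile normalization. For *Ddx58*, which encodes the RNA sensor RIG-I, the values were 33.2, 32.3, 42.1 and 32.3 TPM in WT, 31.2, 33.8, 35.1 and 25.5 TPM in KO and 28.0, 22.1, 26.0 and 20.1 TPM in Rescue. Rescue was below WT throughout and overlapped KO through KO-12. The difference from KO was -0.37 ± 0.15 and from WT -0.53 ± 0.15 (limma, adjusted p = 0.093 and 0.029), and neither was called after rescaling (adjusted p = 0.24 and 0.15). With the GC correction they were -0.02 and -0.20 (limma, adjusted p = 0.93 and 0.41). The call against KO was also lost when any of WT-6, WT-11, KO-8, KO-9, KO-11, Rescue-2 or Rescue-4 was left out.

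*Ifit2*, an interferon-induced RNA-binding protein, stood at 26.1, 30.3, 21.4 and 23.03 TPM in WT, 28.0, 23.2, 30.2 and 24.9 TPM in KO and 19.2, 14.3, 23.9 and 17.6 TPM in Rescue. Rescue was lower apart from Rescue-3, which lay within KO. The difference from KO was -0.50 ± 0.17 (limma, adjusted p = 0.056), -0.08 with the GC correction (adjusted p = 0.8), and the call was lost when KO-8, KO-11, Rescue-2 or Rescue-4 was left out. *Rsad2*, the antiviral enzyme viperin, had 5.83, 4.14, 7.02 and 6.28 TPM in WT, 4.55, 5.43, 7.46 and 7.26 TPM in KO and 3.59, 4.60, 3.23 and 1.96 TPM in Rescue. Rescue-2 was just above the lowest KO library, and the difference was -0.74 ± 0.26 (limma, adjusted p = 0.07), -0.37 with the GC correction (adjusted p = 0.38), and not called after rescaling (adjusted p = 0.12), with quantile normalization or no filter, with a mean TPM of at least 5, or when KO-9, KO-11, KO-12 or Rescue-4 was left out. The difference for its neighbour *Cmpk2* was 0.02 ± 0.24 (limma, adjusted p = 0.96), and whether the 2 genes differ was not tested.

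*Bst2* (tetherin), which holds budding virions at the cell surface, and *Ifi35* were the higher antiviral members. *Bst2* read 146, 130.3, 189.5 and 138 TPM in WT, 151, 104, 143 and 149 TPM in KO and 207, 189, 173 and 159 TPM in Rescue. Rescue was above KO throughout and overlapped WT through WT-10. The difference from KO was 0.42 ± 0.14 (limma, adjusted p = 0.062). *Ifi35* read 45.9, 38.5, 65.5 and 39.1 TPM in WT, 37.3, 28.9, 41.4 and 31.8 TPM in KO and 57.3, 34.7, 60.8 and 60.2 TPM in Rescue. Rescue-1, Rescue-3 and Rescue-4 were above every KO library and Rescue-2 was within KO, with a difference of 0.58 ± 0.21 (limma, adjusted p = 0.072). The *Ifi35* call was lost with no filter on low values and when KO-8, KO-9, KO-12, Rescue-1, Rescue-3 or Rescue-4 was left out, and the *Bst2* call with no filter, with no trend and when KO-9, Rescue-1 or Rescue-2 was left out. The remaining 13 antiviral effectors were not called, and their differences ran from -0.46 (*Ifit1*) to 0.52 (*Isg20*).

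**Figure D4:**
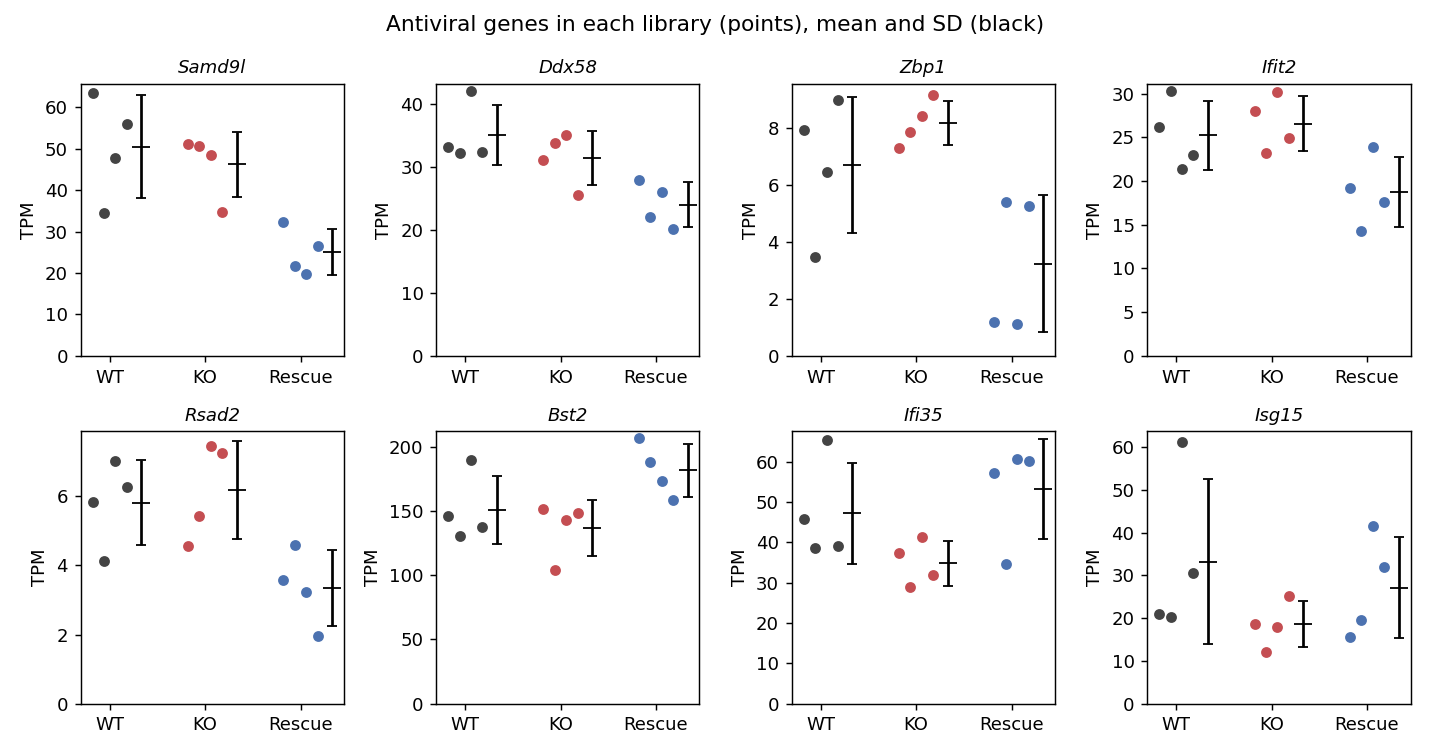
TPM of 8 sensors, antiviral effectors and ISG15 in each library (points: WT grey, KO red, Rescue blue) with group mean and SD in black. Samd9l and Zbp1 are lower in every Rescue library than in every KO library, Bst2 is higher in every one, and Isg15 is highest in WT-10.

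Members that convey or tune the signal were mostly not called in Rescue against KO. None of *Irf1*, *Irf7*, *Irf9* and *Stat2* passed, with differences from -0.18 to 0.35. *Irf1*, a factor induced by interferon gamma and the most abundant of the 4, read 80.5, 94.4, 73.7 and 109 TPM in WT, 88.0, 77.6, 90.5 and 94.1 TPM in KO and 83.2, 79.3, 82.5 and 84.1 TPM in Rescue. All groups overlapped. *Isg15*, a ubiquitin-like protein coupled to other proteins during the response, had 20.9, 20.3, 61.2 and 30.5 TPM in WT, 18.7, 12.1, 17.98 and 25.3 TPM in KO and 15.5, 19.6, 41.5 and 31.9 TPM in Rescue. WT-10 and KO-9 were the extremes and the difference of 0.47 ± 0.37 did not pass (limma, adjusted p = 0.4). *Trim25*, the E3 ligase that activates RIG-I, stood at 90.6, 129.6, 116 and 107 TPM in WT, 104, 91.4, 109 and 98.4 TPM in KO and 92.1, 62.2, 102 and 98.5 TPM in Rescue, with Rescue-2 lowest. *Dtx3l*, an E3 ligase paired with PARP9, read 90.5, 89.7, 111 and 96.6 TPM in WT, 81.6, 84.7, 97.4 and 97.6 TPM in KO and 79.4, 70.5, 98.2 and 95.8 TPM in Rescue, and the groups overlapped. *Trim30a* had 96.9, 82.2, 146 and 89.7 TPM in WT, 84.6, 113, 100.5 and 90.3 TPM in KO and 70.1, 75.7, 79.5 and 77.4 TPM in Rescue. Rescue was apart from and below both other groups, with a difference from KO of -0.35 ± 0.16 that did not pass (limma, adjusted p = 0.14) and that was 0.08 with the GC correction (exon GC 42.1%). *Gbp2* and *Gbp3* differed by -0.26 and -0.15 and were not called.

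Set against WT, Rescue showed fewer called members than against KO. Here 7 of 42 members were called (16.7%), 2 higher and 5 lower, beside 24.3% of all genes tested (4.82% higher, 19.4% lower), with 15 at an unadjusted p under 0.05, beside 4537 of the 14479 genes. Both higher calls were class I genes, 2 of 7 tested (28.6%): *Psmb10* at 0.52 ± 0.16 and *Psmb8* at 0.32 ± 0.11 (limma, adjusted p = 0.037 and 0.055). The lower calls were *Samd9l* and *Ddx58*, given above, *Irf9*, *Oasl2* and *Trim30a*. The median difference was 0.21 over class I genes and -0.30 over the other 35, beside -0.21 over all genes tested, or 0.42 and -0.09 relative to it. Groups were apart for 4 of 42 (9.52%, beside 18% of all genes), namely *Psmb10* above (beside 3.55%) and *Samd9l*, *Ddx58* and *Trim30a* below (beside 14.5%).

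*Irf9* in Rescue read 49.3, 45.4, 34.5 and 61.0 TPM, with Rescue-4 inside the WT range, and differed from WT by -0.50 ± 0.14 (limma, adjusted p = 0.034). *Oasl2*, an oligoadenylate synthetase-like protein, had 10.96, 12.7, 18.9 and 13.1 TPM in WT, 13.2, 9.75, 11.7 and 11.4 TPM in KO and 6.59, 6.26, 12.6 and 8.48 TPM in Rescue. Rescue-1, Rescue-2 and Rescue-4 were below every WT and KO library and Rescue-3 was within both, and the difference from WT was -0.67 ± 0.23 (limma, adjusted p = 0.063). *Trim30a* differed from WT by -0.41 ± 0.16 (limma, adjusted p = 0.089). With the GC correction the differences from WT were -0.29 for *Irf9*, -0.41 for *Oasl2* and -0.02 for *Trim30a*, none of them called. The *Oasl2* call was lost when WT-10, WT-11, Rescue-1, Rescue-2 or Rescue-4 was left out, the *Trim30a* call when any of 8 libraries was (WT-6, WT-10, KO-8, KO-11, KO-12, Rescue-1, Rescue-2 or Rescue-4), the *Psmb8* call when WT-10, WT-11 or Rescue-4 was, and the *Psmb10* call when WT-10 was. After rescaling by the median ratio, where the median of all genes moved from -0.21 to -0.03, the split turned to 7 higher (16.7%) and 1 lower (2.38%), beside 9.02% and 8.59% of all genes tested. *Samd9l* alone remained lower, and the higher calls were *Psmb8*, *Psmb10*, *Tap1*, *H2-K1*, *H2-D1*, *Bst2* and *Isg20*, 5 of 7 class I genes. Without WT-10 the count of class I calls was 0, without Rescue-2 it was 4, and without Rescue-3 there were 13 called members, 11 of them lower. For these runs too the shares of all genes are not given. The Rescue libraries enter both comparisons, so the calls shared by them are not independent.

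Within groups, the antiviral members also differed from mouse to mouse. WT-10 was the highest of the 4 WT libraries for 24 of 42 members (57.1%), beside 23.2% of all genes tested. Over the 18 antiviral effectors its median deviation from the WT mean was 0.46 on the log2 scale, whereas over the 7 class I genes it was -0.21 and over all genes -0.01. *Mx1* (22.5 TPM, others up to 9.51), *Isg15* (61.2 TPM, others up to 30.5), *Oas3* (12.8 TPM, others up to 6.37) and *Ifi44* (46.8 TPM, others up to 25.5) are examples, chosen after their values were seen. KO-9 was the lowest KO library for 20 of 42 members (47.6%, beside 31.6%). Rescue-2 was the lowest Rescue library for 22 of 42 (52.4%, beside 39.6%), and its median deviation was -0.21 over the members and -0.13 over all genes. For the class I genes Rescue-4 stood highest among Rescue libraries, with a median of 0.25 beside 0.02 over all genes. These counts are descriptions, since genes in 1 library share its RNA.

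**Figure D5:**
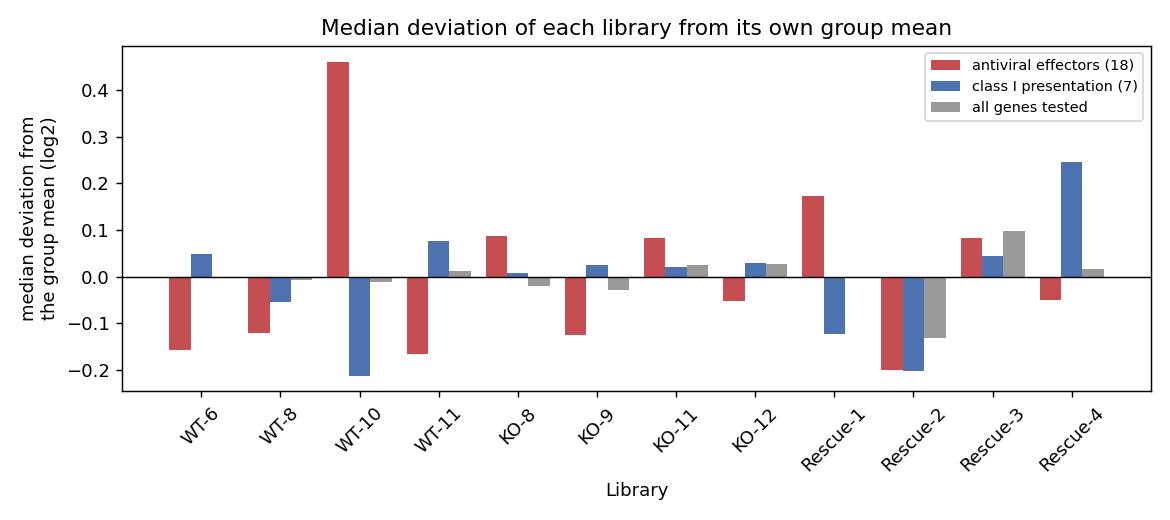
Bars give, for each library, the median over genes of its deviation from the mean of its own group in log2(TPM + 1), for the 18 antiviral effectors (red), the 7 class I genes (blue) and all 14479 genes tested (grey). WT-10 stands at 0.46 for the antiviral effectors and -0.21 for the class I genes, while the all-gene bars stay between -0.13 and 0.10.

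Of the signalling route upstream of these genes, the type I and type III interferon ligands measured were at or near 0. *Ifnb1*, *Ifna2*, *Ifna4*, *Ifne*, *Ifnk*, *Ifnl2* and *Ifnl3* stood at no more than 0.424 TPM in any library and were not tested. *Ifng*, the type II interferon of NK and T cells, read 1.92, 0, 1.41 and 5.94 TPM in WT, 3.23, 3.45, 5.55 and 2.07 TPM in KO and 0, 0.595, 0 and 0 TPM in Rescue. Rescue was lowest, and it was called lower than KO at -1.97 ± 0.52 (limma, adjusted p = 0.021). This went with the lower NK and innate lymphoid markers given above, whose part was not tested. The type I receptor chains *Ifnar1* (71.6 to 85.4 TPM in WT, 75.1 to 92.3 in KO, 61.6 to 88.9 in Rescue) and *Ifnar2* (133 to 175, 123 to 149 and 102 to 134 TPM) were present throughout. In Rescue against KO they differed by -0.08 and -0.19 and were not called. *Ifngr1*, the ligand-binding chain for interferon gamma, was lower at -0.56 ± 0.14, with 163 to 216 TPM in WT, 153 to 202 in KO and 109.6 to 162 in Rescue (limma, adjusted p = 0.018), *Il10rb*, shared by the lambda receptor, was lower at -0.33 (adjusted p = 0.061), *Ifngr2* was not called (0.08) and *Ifnlr1* reached at most 1.07 TPM and was not tested. Of the 5 receptors tested, 2 were called lower (40%, beside 19.3% of all genes tested). After rescaling 1 was called lower (20%, beside 12.9%), and 0 with the GC correction (beside 5.8%).

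Among 10 kinases, STATs and feedback genes, 4 were called lower than KO and none higher (beside 19.3% and 8.58% of all genes tested). The count was 2 after rescaling by the median ratio (beside 12.9%) and 1 with the GC correction (beside 5.8%), where *Jak2* alone was called. *Jak2*, the kinase of the interferon gamma and several haematopoietic cytokine receptors, read 192, 92.8, 99.3 and 122 TPM in WT, 124, 126, 112 and 103 TPM in KO and 47.8, 42.4, 65.3 and 43.2 TPM in Rescue. Rescue was far below both other groups, and the difference of -1.23 ± 0.20 was called with and without rescaling (limma, adjusted p = 0.0021 and 0.0028). WT-6, the WT library with the highest *Jak2*, also had the highest WT sum of basophil and mast cell markers (9045 TPM). The part of cell types in the *Jak2* difference was not tested. *Pias1* (-0.35) and *Jak1* (-0.22) were also called. *Tyk2*, *Stat3*, *Socs1*, *Socs3*, *Ptpn6* and *Ptpn11* were not, with differences from -0.03 to 0.50. In Rescue against WT, 4 of these 10 and 2 of 5 receptors tested were called, all lower (beside 19.4% of all genes tested). After rescaling these counts were 1 of 10 and 1 of 5 (beside 8.59%), and with the GC correction 1 of 10 and 0 of 5 (beside 5.04%).

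Among other interferon-stimulated genes outside the set, most were not called in Rescue against KO. The split of the called ones depended on the processing, while the share called lower was above that of all genes in each setting given. Of 57 tested, 2 were called higher (3.51%) and 21 lower (36.8%) than KO, beside 8.58% and 19.3% of all genes tested. After rescaling 4 were higher (7.02%) and 14 lower (24.6%), beside 13.1% and 12.9%. With the GC correction 7 were higher (12.3%) and 8 lower (14.0%), beside 13.7% and 5.8% of all genes with a value. There 31 of the 57 differences were above 0, beside 7719 of 13086 genes. Against WT the counts were 1 and 23 (1.75% and 40.4%, beside 4.82% and 19.4%). They were 1 and 14 after rescaling (1.75% and 24.6%, beside 9.02% and 8.59%). With the GC correction they were 3 and 8 (5.26% and 14.0%, beside 10.2% and 5.04%). The 6 with the largest differences from KO included *Slfn2*, a regulator of lymphocyte quiescence (35.2 to 119 TPM in WT, 31.2 to 50.2 in KO, 2.61 to 8.30 in Rescue, difference -2.61 ± 0.36, limma adjusted p = 0.00072), and *Ifitm1*, a membrane restriction factor (68.6 to 283, 88.9 to 159.7 and 11.6 to 24.4 TPM, -2.53 ± 0.38, adjusted p = 0.0011). *Ms4a4b* (-1.28), *Ms4a6b* (-1.16) and *Cd274*, encoding the checkpoint ligand PD-L1 (-1.19), were lower as well, and *Ifi27l2a* was higher (1.18). Of 17 nucleic acid sensing genes, 2 were higher (*Irf5* and *Unc93b1*, at 0.51 and 0.33) and 3 lower (among them the nucleotide hydrolase *Samhd1* at -0.69 and *Tmem173*, encoding STING, at -0.32), with 3 and 2 after rescaling and 0 and 2 with the GC correction. Of 6 further IRF-related genes, *Irf2bp1* (0.76) and *Irf8* (0.36) were higher and *Irf2* (-0.31) and *Irf2bp2* (-0.60) lower, with 2 and 1 called after rescaling and 1 and 1 with the GC correction. For the sensing and IRF lists, the shares of all genes against KO are those given above for the 57 genes. None of the 125 pathway genes tested was called in KO against WT (7 at an unadjusted p under 0.05, beside 767 of all 14479 genes).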

How the data were processed

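Poly(A)+ RNA-seq libraries of sorted CLPs (4 WT, 4 KO, 4 Rescue) were made with the CATS RNA-seq kit v2. Per the labels, the submitters' processing notes name cutadapt, TopHat2 2.1.1, featureCounts and mm10, and the deposited values are TPM, made by the authors from gene counts and scaled by gene length and library total. Gene symbols were given to 32799 of 47643 rows. Genes whose TPM averaged 1 or more over the libraries were tested on log2(TPM + 1) with limma 3.58.1 (R 4.3.3; lmFit and eBayes with trend, all 3 groups in 1 fit, Benjamini-Hochberg over 14479 genes, called at 0.1). Within 0.05 reads 99.99% of tested genes were whole multiples of 1 read, so reads were recovered for depth and for limma-voom. Alternatives changed the pseudocount, filter, scaling, fit, threshold, libraries and GC correction (13086 genes with a value), and the fit was tested on simulated data. Every member called in a comparison, and the 12 of highest mean TPM, is given in every library; receptors, kinases and STATs are always named, and of other lists up to 6 called genes of largest difference. The members and gene lists were chosen with earlier results of these data known. Promoter windows are RefSeq's (GRCm38.p6). *Psmb9* was not analysed here, and some genes of the pathway lists are counted but not reported singly here.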

Additional observations from a re-analysis of the deposited data

Results flagged for a closer look

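Within groups of 4, a library was marked when its gap to the nearest of the others exceeded Dixon's 95% limit as a share of the group's range on the log2(TPM + 1) scale, a limit that chance passes in about 1 in 20 groups. Of 126 sets of a member and a group, 8 were marked. *Ddx58* in WT-10 stood at 5.43 (42.1 TPM), above 5.06 to 5.10 in the other WT libraries. *Mx1*, also in WT-10, stood at 4.56, above 3.22 to 3.39. Among KO libraries, *Dhx58* in KO-12 was low at 2.88 (others 4.25 to 4.34), *Samd9l* in KO-12 was low at 5.15 (others 5.63 to 5.71) and *Bst2* in KO-9 was low at 6.71 (others 7.17 to 7.25). Among Rescue libraries, *Ifit1* in Rescue-3 was low at 1.93 (others 2.98 to 3.12), *Ifi35* in Rescue-2 was low at 5.16 (others 5.87 to 5.95) and *Gbp3* in Rescue-3 was high at 6.56 (others 5.78 to 5.86).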

How the results depend on the processing

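In KO against WT, 0 members were called under every alternative run, including limma-voom. With a replicate block on mouse number, 0 members and 0 genes were called. Only the numbers 8 and 11 are shared, and their deviations correlated at -0.03 and -0.04, so the numbers were not taken to pair the samples. In Rescue against KO, 12 members were called, 7 with no filter, 7 with quantile normalization, 6 at an adjusted p of 0.05, and 5 to 12 when leaving out 1 library. Class I calls there numbered 5, with 3 under quantile normalization and 2 to 5 when leaving out 1 library (2 without Rescue-4, 3 without KO-12). In Rescue against WT, 7 members were called, 4 with quantile normalization, 3 with only the groups compared, 4 at an adjusted p of 0.05, and 5 to 13 when leaving out 1 library. Class I calls there numbered 2, with 5 after rescaling, 1 with only the groups compared, 1 with no trend, 1 at an adjusted p of 0.05, 6 with limma-voom, 6 with the GC correction and 0 to 4 when leaving out 1 library (0 without WT-10, 1 without WT-11 or Rescue-4). The class I counts were led with after seeing the data. Shares of all genes called are not given for the runs in this section, so a change in a count is not a result about the members. *Trim30a* in Rescue against KO changed sign with the GC correction, to 0.076 (-0.35 without it). Of 456 values for the 19 called differences, 347 kept their call and direction, 109 lost the call and 0 reversed. The causes were not tested.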
